A study of Homo sapiens with 6 samples.

Results

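The miR-99 and miR-100 family was examined in small RNA libraries of MIO-M1, a human cell line established from Müller glia of the retina, prepared from whole cells and from the extracellular vesicles (EV) they secreted. Its members were chosen by name as the mature products of 3 hairpins, hsa-miR-100-5p and hsa-miR-100-3p of MIR100, hsa-miR-99a-5p and hsa-miR-99a-3p of MIR99A, and hsa-miR-99b-5p and hsa-miR-99b-3p of MIR99B. All 6 were among the 2576 mature miRNAs listed in the count tables. All 6 had at least 1 count in a library, and 5 passed the filter used for testing, which asked for at least 5 CPM (counts scaled to equal library totals) in at least 3 of the 6 libraries. miR-100-3p did not pass it.

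The question of the design was how the miRNA content of EV compares with that of the cells that release them. There were 3 libraries of whole cells, at passages 22, 24 and 26, and 3 of EV, at passages 23, 25 and 27, numbered 1, 2 and 3 by passage within each group. All were of the same wild-type line, untreated, grown in medium with foetal serum, and EV were treated with RNase A before their RNA was isolated. The medium that EV were collected from was serum-free in the labels and depleted of vesicles in the methods. The groups also differed in the RNA isolation kit, one for cell pellets and another for EV, so that source and kit cannot be told apart. The replicates are passages of 1 line, and p-values measure the spread between these passages only. The deposited values are counts per mature miRNA.

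A miRNA is cut from a hairpin precursor as a 5p and a 3p strand, and 1 of them is usually kept as the guide that directs the silencing complex to messenger RNA. Pairing of bases 2 to 8 of the guide, its seed, largely sets which messages are bound. The family is an old one in animals and is best known for repressing the growth kinase mTOR, the IGF1 receptor and the chromatin protein SMARCA5. Each of its 3 human genes lies in a cluster with a let-7 and a miR-125 gene, whose products are likewise abundant in glia.

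The 5p sequences are shown because the members are told apart by few bases, and the capitals mark the seed. They were taken from RefSeq (GRCh38.p14), which held all 6 members.
hsa-miR-100-5p: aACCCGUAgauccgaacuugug
hsa-miR-99a-5p: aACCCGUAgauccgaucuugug
hsa-miR-99b-5p: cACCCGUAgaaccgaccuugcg

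All 3 carried the seed ACCCGUA, and no miRNA outside the family did among the 2262 of the tables with a RefSeq sequence. Counted from 1 at the 5′ end, miR-100-5p differed from miR-99a-5p by A16U alone. It differed from miR-99b-5p by A1C, U11A, A16C and U21C. The number of mismatches allowed in alignment is not given in the sources used here, and with 1 base between them, reads of miR-100-5p and miR-99a-5p may have been assigned to each other. The 3p strands are shown for the same reason.
hsa-miR-100-3p: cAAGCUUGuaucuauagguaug
hsa-miR-99a-3p: cAAGCUCGcuucuaugggucug
hsa-miR-99b-3p: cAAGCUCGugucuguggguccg

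miR-99a-3p and miR-99b-3p shared the seed AAGCUCG, from which that of miR-100-3p differed by C7U. The mature sequences were 22 bases long in each case, so that no correction for length was needed between members. Whether their other differences in sequence affect how well each is counted was not tested. Comparisons between members are therefore of counts only. The letters GGAG and GGCU, short motifs linked to sorting of miRNA into vesicles, were in none of the 6 sequences, read on the given strand. GGAG was in 15.8% and GGCU in 12.5% of the 2262 sequences.

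The MIR100 hairpin lies at chr11:122152229-122152308 on the minus strand of GRCh38.p14, in an intron of the non-coding host gene MIR100HG, with MIRLET7A2 5635 bases and MIR125B1 52384 bases away on the same strand. MIR99A lies at chr21:16539089-16539169 on the plus strand, in an intron of MIR99AHG, with 658 bases between it and MIRLET7C. MIR99B lies at chr19:51692612-51692681 on the plus strand, within an intron of SPACA6 and an exon of the antisense gene SPACA6P-AS. Only 104 bases separate it from MIRLET7E and 572 from MIR125A.

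Library totals lay between 396025 and 3990900 counts for whole cells, and between 1225541 and 3134561 counts for EV. Where a miRNA had 0 counts, a level of up to 3 counts remained possible, which is 7.58 CPM in whole cells 1 and 0.957 CPM in EV 3. For the 5p members the 95% Wilson interval was at most 4.83% of the value on either side, and intervals and limits cover counting error only. All 9 miRNAs of a Müller glia list had counts in all 6 libraries, and together they made up 36.4% to 40.5% of the count in whole cells and 30.6% to 36.0% in EV. This list includes miR-100-5p. Except for miR-204-5p, which was added, its miRNAs are those the paper names as abundant in these EV and reported for rodent Müller glia. Their detection and share were thus in part set by that choice and are no test of cell identity. Of 11 blood and serum miRNAs, 3 to 6 had counts in whole cell libraries, with a summed level of 265 to 1204 CPM, and 7 to 10 had counts in EV libraries, with 2314 to 3213 CPM. Their part in the values of the family was not tested.

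miR-100-5p was among the more abundant miRNAs of both sources. Its level was 8532, 6715 and 5758 CPM in whole cells 1, 2 and 3, where it ranked between 28 and 35, and 22517, 7677 and 10028 CPM in EV 1, 2 and 3, where it ranked between 10 and 26. EV 1 held the highest level, and EV 2 lay below whole cells 1, so that the groups overlapped. Whole cells had a mean of 7002 ± 1409 CPM (SD, n = 3), and EV one of 13408 ± 7976 CPM (SD, n = 3).

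miR-99a-5p, which differs from it by a single base, followed the same order of libraries in cells. Its level was 5277, 3109 and 2646 CPM in whole cells 1, 2 and 3, and 17087, 3540 and 3787 CPM in EV 1, 2 and 3. EV 1 was again far above the other libraries, while EV 2 and EV 3 lay inside the range of the cells. Whole cells had a mean of 3677 ± 1405 CPM (SD, n = 3), and EV one of 8138 ± 7751 CPM (SD, n = 3).

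miR-99b-5p had its higher mean in whole cells. Its level was 4144, 10312 and 10049 CPM in whole cells 1, 2 and 3, and 4643, 3133 and 6231 CPM in EV 1, 2 and 3. Whole cells 1 fell within the range of EV, and the other cell libraries lay above every EV library. Whole cells had a mean of 8168 ± 3488 CPM (SD, n = 3), and EV one of 4669 ± 1549 CPM (SD, n = 3).

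**Figure D1:**
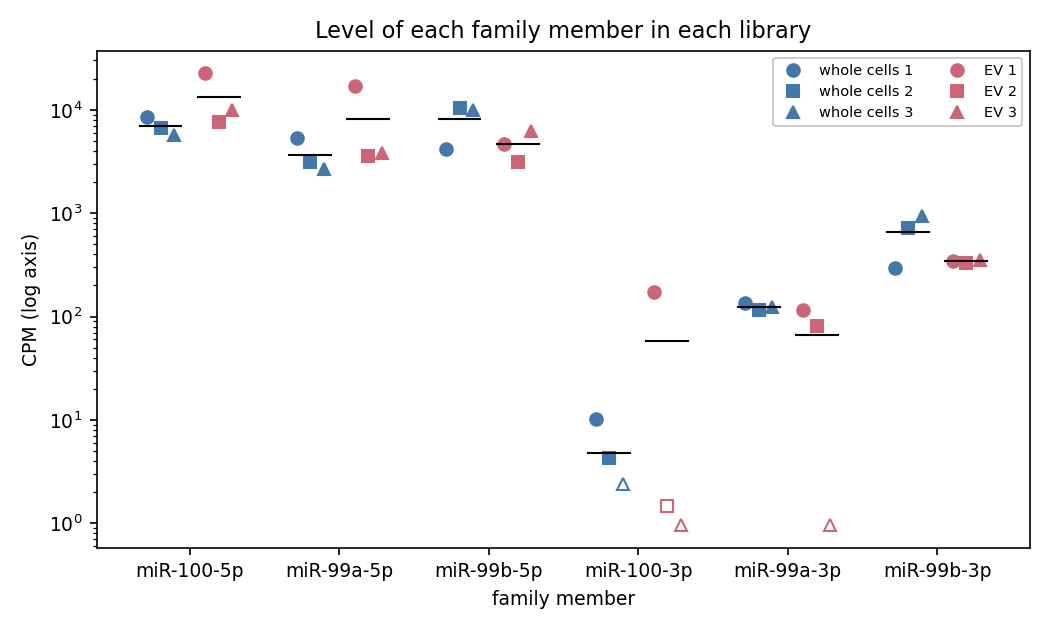
Level of each member in CPM (log axis) in whole cells (blue) and EV (red), with circles, squares and triangles for replicates 1, 2 and 3 and a black line at the mean of the 3 libraries. Open symbols stand for a count of 0 and are drawn at the level that 3 counts would give. The groups overlap for all 6 members, with EV 1 at 22517 CPM for miR-100-5p.

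In order of mean level, miR-99b-5p came before miR-100-5p and miR-99a-5p in whole cells, and miR-100-5p before miR-99a-5p and miR-99b-5p in EV. In cells, miR-99b-5p and miR-100-5p were closer to each other than the spread between libraries, and their order was turned in whole cells 1. In EV, miR-100-5p was above miR-99a-5p in every library, and miR-99a-5p was below miR-99b-5p in EV 3.

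None of the 5 members past the filter passed edgeR's quasi-likelihood test between the sources at an adjusted p below 0.05, and 0 of 5 had an unadjusted p below 0.05. Over all 430 miRNAs tested, 28.6% were called. With DESeq2, 0 of 5 members were called, against 34.7% of the 430, and 1, miR-99b-3p, had an unadjusted p below 0.05. The limits of an adjusted p below 0.01 and a log2 fold change of at least 2.5 in size, which 5.81% of miRNAs passed in the edgeR test, were likewise passed by 0 members. In levels scaled by TMM factors, the groups overlapped for all 5 members, whereas they did not overlap for 48.4% of the 430.

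The log2 fold change of EV over whole cells in the edgeR fit was 1.03 (SE 0.50, adjusted p = 0.192) for miR-100-5p. It was 1.28 (SE 0.70, adjusted p = 0.243) for miR-99a-5p. Without EV 1, these values dropped to 0.29 and -0.03, so that the positive sign of miR-99a-5p rested on that library. For miR-99b-5p the log2 fold change was -0.83 (SE 0.54, adjusted p = 0.333). The median log2 fold change over all 430 miRNAs was -0.23, and it moved to -0.41 with DESeq2, where the members kept their signs.

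Both strands of the miR-99b hairpin lay on the same side. miR-99b-3p had 298, 717 and 935 CPM in whole cells 1, 2 and 3, and a near constant 344, 331 and 353 CPM in EV 1, 2 and 3. As for its 5p strand, only whole cells 1 was as low as the EV libraries. Its log2 fold change was -0.99 (SE 0.56, adjusted p = 0.262). Without whole cells 1, the library with the smallest total, the value became -1.39 with an adjusted p of 0.0447 in edgeR's quasi-likelihood test, past the limit, in a fit that called 20.5% of the miRNAs tested.

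The other 3p strands were less abundant. miR-99a-3p had 134, 115 and 124 CPM in whole cells 1, 2 and 3, with 116 and 80.9 CPM in EV 1 and 2 and a count of 0 in EV 3, which allows up to 0.957 CPM. Its log2 fold change was -0.93 (SE 1.60, adjusted p = 0.734), and without EV 3 it was -0.56 with an SE of 0.57. miR-100-3p had 4, 17 and 0 counts in whole cells and 211, 0 and 0 counts in EV, so that EV 1 held nearly all of it, at 172 CPM. EV 1 was also the library with the highest level of its partner strand, miR-100-5p.

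**Figure D2:**
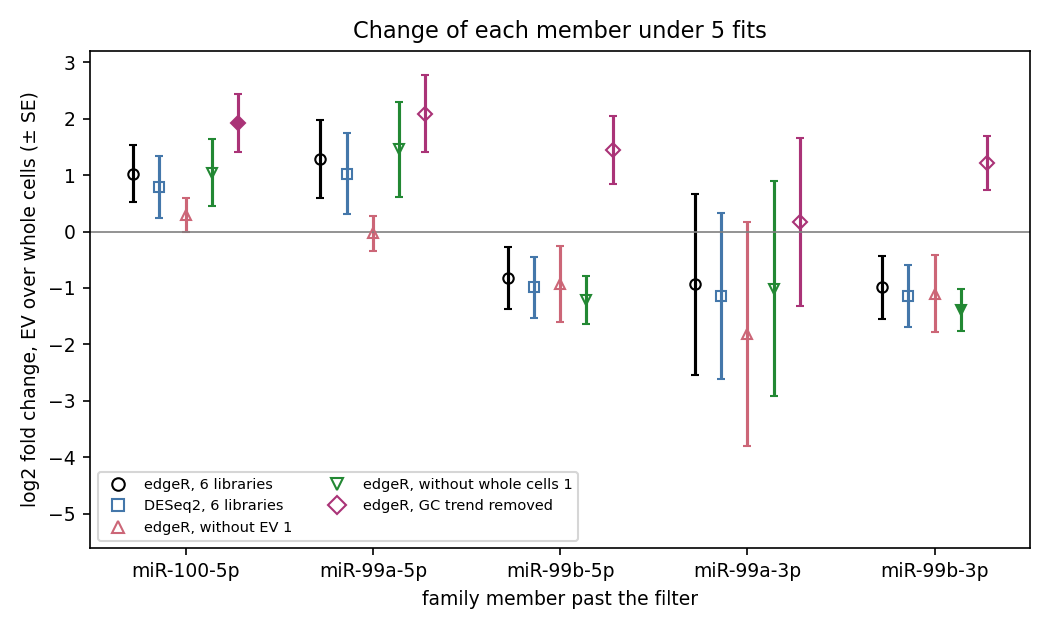
Log2 fold change of EV over whole cells (vertical axis) with its standard error for the 5 members past the filter, under 5 fits told apart by symbol and colour. Filled symbols mark an adjusted p below 0.05. miR-99a-5p drops to -0.03 without EV 1, and miR-99b-5p moves from -0.83 to 1.44 once the trend on base composition is removed.

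The ratio of the strands of a hairpin does not depend on the library total. The 5p strand exceeded the 3p strand in all 3 hairpins and all 6 libraries. For miR-99b the ratio of 5p to 3p counts was 13.9, 14.4 and 10.7 in whole cells 1, 2 and 3, and 13.5, 9.46 and 17.7 in EV 1, 2 and 3. These ranges overlapped, and the mean log2 ratio differed by 0.03 (two-sided exact permutation test, p = 1.0). For miR-99a the ratio was 39.4, 27 and 21.4 in whole cells, and 147 and 43.7 in EV 1 and 2. In EV 3 it was at least 3957, from 11870 counts of the 5p strand and 0 of the 3p strand. Every EV library was thus above every whole cell library (exact permutation p = 0.1, the smallest that 3 against 3 libraries allow, and 0.3 after adjustment over the 3 hairpins). Among 110 hairpins with both strands past the filter, which include miR-99a and miR-99b, the groups did not overlap for 46.4%. For miR-100 the ratio was 845 and 1576 in whole cells 1 and 2 and at least 2403 in whole cells 3. It was 131 in EV 1, at least 5217 in EV 2 and at least 10478 in EV 3, and the groups overlapped (exact permutation p = 0.8).

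The share of the whole miRNA count held by the 6 members was 1.84%, 2.10% and 1.95% in whole cells 1, 2 and 3, and 4.49%, 1.48% and 2.04% in EV 1, 2 and 3. EV 1 was the highest library and EV 2 the lowest. Whole cells had a mean share of 1.96% ± 0.129 (SD, n = 3), and EV one of 2.67% ± 1.60 (SD, n = 3), a difference within the spread of EV (two-sided exact permutation test, p = 0.8). Without EV 1 the mean of EV minus that of whole cells was -0.205 percentage points.

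The members contributed to this sum in different proportions. miR-100-5p made up 47.5%, 33.3% and 31.2% of the counts of the 3 5p members in whole cells 1, 2 and 3, and 50.9%, 53.5% and 50.03% in EV 1, 2 and 3. Its share was almost the same in each EV library, including EV 1. Each EV value was above each whole cell value, though whole cells 1 (47.5%) lay close to EV 3 (50.03%). For the shares of miR-99a-5p and miR-99b-5p the groups overlapped. Lack of overlap was common in these libraries, at 46.5% of the ratios between any pair of miRNAs past the filter. The difference in the share of miR-100-5p was not tested. miR-99b-5p made up 23.1%, 51.2% and 54.5% in whole cells and 10.5%, 21.8% and 31.1% in EV. Whole cells 1 stood within the EV range for this member. miR-99a-5p made up 29.4%, 15.4% and 14.3% in whole cells and 38.6%, 24.7% and 18.9% in EV.

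**Figure D3:**
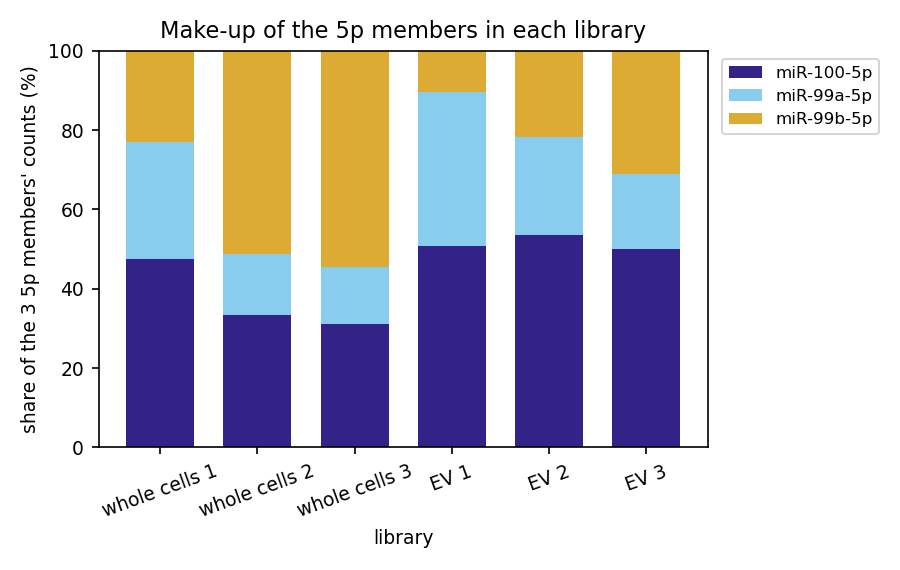
Share of each 5p member (colours) in the summed counts of miR-100-5p, miR-99a-5p and miR-99b-5p in percent (vertical axis), with 1 bar per library. miR-100-5p lies between 50.03% and 53.5% in EV, and miR-99b-5p reaches 51.2% and 54.5% in whole cells 2 and 3.

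The ratio of miR-100-5p to miR-99a-5p was 1.62, 2.16 and 2.18 in whole cells 1, 2 and 3, and 1.32, 2.17 and 2.65 in EV 1, 2 and 3, and the ranges of the groups overlapped fully. Whole cells had a mean log2 ratio of 0.98 ± 0.24 (SD, n = 3), and EV one of 0.97 ± 0.52 (SD, n = 3) (exact permutation p = 0.9). The ratio of miR-100-5p to miR-99b-5p was 2.06, 0.651 and 0.573 in whole cells, and 4.85, 2.45 and 1.61 in EV. Whole cells 2 and 3 held more miR-99b-5p than miR-100-5p, and every EV library held less. The mean log2 ratio was 1.55 higher in EV, with p = 0.2 in the exact permutation test and 0.45 after adjustment over the 3 pairs of members. For miR-99a-5p against miR-99b-5p the log2 difference was likewise 1.55 (exact permutation p = 0.3, adjusted 0.45).

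Each member was next compared with the let-7 and miR-125 miRNAs of its own cluster. let-7 miRNAs restrain growth and pluripotency genes, and miR-125 is the vertebrate form of lin-4, a regulator of developmental timing. All 11 mature partners passed the filter, with a median log2 fold change of -0.68. Of them, edgeR called 0 higher and 1 lower in EV, against 28.6% of all 430 miRNAs called in either direction. The 1 called was let-7e-5p, the neighbour of miR-99b, which had 9767, 16011 and 17139 CPM in whole cells 1, 2 and 3 and 4981, 4812 and 4965 CPM in EV 1, 2 and 3. The log2 fold change was -1.57 (SE 0.40, adjusted p = 0.0213), and every EV library was lower than every whole cell library. The edgeR call was lost without whole cells 2 (adjusted p = 0.0952) and without whole cells 3 (adjusted p = 0.0765). miR-125b-5p, with 100534, 114982 and 115967 CPM in whole cells and 21962, 56534 and 70112 CPM in EV, did not overlap either. Its log2 fold change was -1.19 (SE 0.49, adjusted p = 0.124), and it was called by DESeq2 (adjusted p = 0.0149) and, without EV 3, by edgeR (adjusted p = 0.0436). In TMM-scaled levels, neither let-7e-5p nor miR-125b-5p overlapped between the groups, as was true of 48.4% of the 430 miRNAs.

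Within a library, miR-100-5p was higher relative to let-7a-5p in each EV library than in any whole cell library. The ratio of their counts was 0.0523, 0.0504 and 0.0544 in whole cells 1, 2 and 3, a spread far narrower than that of either miRNA alone, and 0.201, 0.135 and 0.137 in EV 1, 2 and 3. The fold between the geometric means was 2.97, and the log2 difference stayed between 1.38 and 1.67 when any 1 library was left out. let-7a-5p comes from 3 loci and cannot be assigned to the cluster of MIR100 alone. The mature let-7a-5p had 36.4% of G and C bases and miR-100-5p 50%. Among tested miRNAs with a sequence, the median log2 fold change was 0.85 at 35% to 45% and -0.38 at 45% to 55%. The part of base composition in this ratio was not tested.

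The ratio of miR-100-5p to miR-125b-5p was 0.0849, 0.0584 and 0.0497 in whole cells 1, 2 and 3, and 1.03, 0.136 and 0.143 in EV 1, 2 and 3. That of miR-99a-5p to miR-125b-5p, which has loci in both clusters, was 0.0525, 0.0270 and 0.0228 in whole cells and 0.778, 0.0626 and 0.0540 in EV. In both, the groups did not overlap, and EV 1 stood far above EV 2 and EV 3. The fold between geometric means was 4.33 in each, and without EV 1 the log2 difference fell from 2.11 to 1.15 for miR-100-5p and to 0.87 for miR-99a-5p. The 3 miRNAs have the same share of G and C bases, 50%.

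The ratio of miR-99b-5p to let-7e-5p, which are transcribed next to each other, was 0.424, 0.644 and 0.586 in whole cells 1, 2 and 3, and 0.932, 0.651 and 1.25 in EV 1, 2 and 3. EV 2 was only just above whole cells 2. The fold between the geometric means was 1.68, while the level of miR-99b-5p itself was not called in either direction. Its ratio to miR-125a-5p overlapped between the groups, at 1.23-fold (exact permutation p = 0.9). The ratio of miR-99a-5p to let-7c-5p overlapped too, at 1.69-fold (exact permutation p = 0.2).

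**Figure D4:**
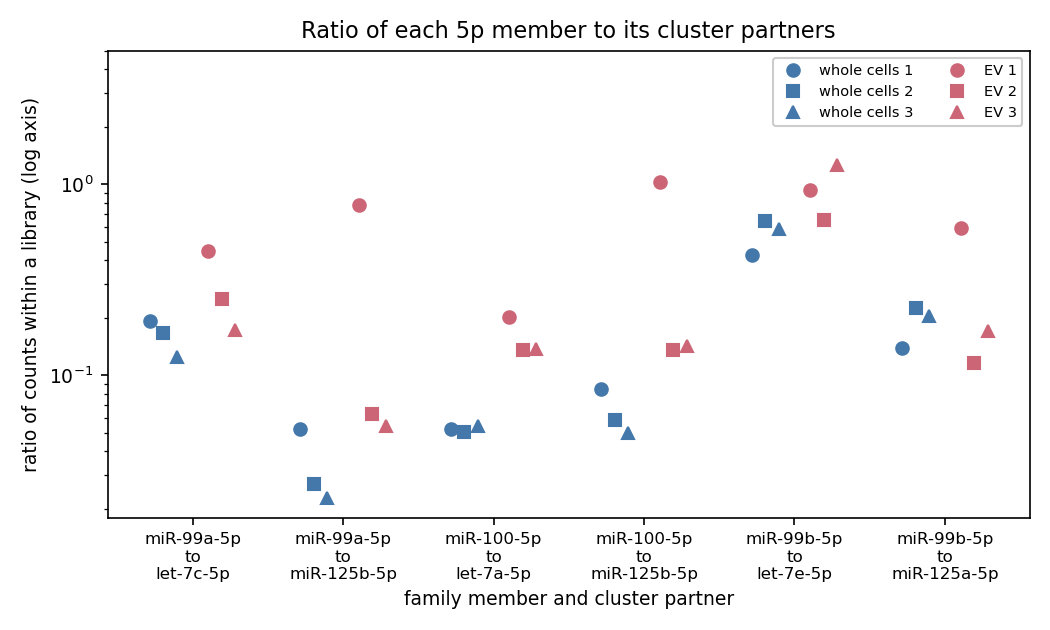
Ratio of the counts of each 5p member to those of 2 partners of its cluster (log axis), with whole cells in blue, EV in red and circles, squares and triangles for replicates 1, 2 and 3. The groups do not overlap for 4 of the 6 ratios, and the whole cell libraries lie between 0.0504 and 0.0544 for miR-100-5p to let-7a-5p.

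In all, the groups did not overlap for 4 of these 6 ratios, each with an exact permutation p of 0.1, the smallest possible, and 0.15 after adjustment over the 6. The same was true of 46.5% of the 92235 ratios between any pair of the 430 miRNAs, so that a ratio without overlap was common in these libraries.

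The nearest relatives by sequence are miR-10a-5p and miR-10b-5p, which come from the HOX gene clusters and are placed in one superfamily with miR-99 and miR-100. The seed of miR-10a-5p departs from that of the family, as its sequence shows.
hsa-miR-10a-5p: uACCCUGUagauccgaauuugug

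Both were called higher in EV by edgeR, in a fit that called 28.6% of all 430 miRNAs in either direction. miR-10a-5p had 1071, 967 and 773 CPM in whole cells 1, 2 and 3 and 3168, 3956 and 4126 CPM in EV 1, 2 and 3, with a log2 fold change of 2.02 (SE 0.29, adjusted p = 0.00462). miR-10b-5p had a log2 fold change of 2.73 (SE 0.34, adjusted p = 0.00331). Unlike for the family, every EV library was above every whole cell library, and EV 1 was the lowest of the EV libraries for both. Lack of overlap in TMM-scaled levels was seen for 48.4% of the 430 miRNAs. The difference between these changes and those of the family was not tested.

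The change between the sources moved with base composition over the whole table. Among the 390 tested miRNAs with a RefSeq sequence, the median log2 fold change was 2.17 for the 32 with less than 35% of G and C bases, and 0.85 for the 84 with 35% to 45%. It was -0.38 for the 171 with 45% to 55%, -1.42 for the 67 with 55% to 65% and -1.13 for the 36 above. The members differ in this property, with 50% in miR-100-5p and miR-99a-5p, 54.5% in miR-99a-3p and 63.6% in both strands of miR-99b. miR-100-5p lay above 79.2% and miR-99a-5p above 81.5% of the 168 other miRNAs within 5 percentage points of their own content. miR-99b-5p lay above 57.1% and miR-99b-3p above 55.6% of the 63 miRNAs of like content, whose median log2 fold change was -1.35. miR-99a-3p, at -0.93, lay above only 40.0% of its 130, whose median was -0.68.

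**Figure D5:**
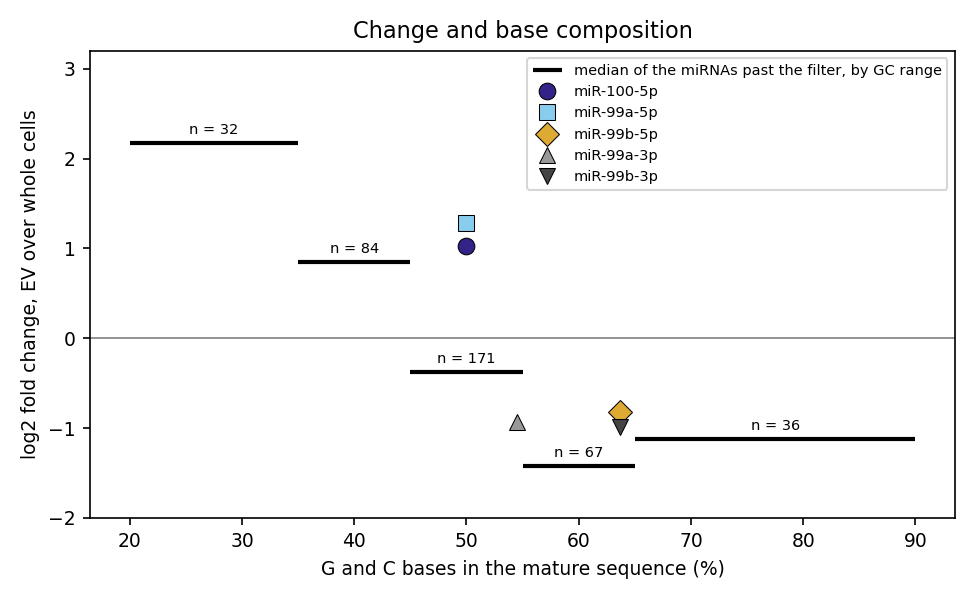
Log2 fold change of EV over whole cells (vertical axis) against the percent of G and C bases in the mature sequence. Black lines give the median of the miRNAs in each of 5 ranges, with the outer ranges cut short at the edges, and symbols show the 5 members. miR-100-5p and miR-99a-5p, at 50%, lie above the median of their range, and both strands of miR-99b lie near 63.6% at -0.83 and -0.99.

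When the trend on G and C content was removed from each library before the edgeR fit, a choice made once the data were known, all 5 members had a positive log2 fold change, as did 223 of the 390 miRNAs in the fit. Of the 390, 24.9% were called, and of the members 1 was. This was miR-100-5p, at 1.92 (SE 0.51, adjusted p = 0.0304), and miR-99a-5p stood at 2.09 (SE 0.69, adjusted p = 0.0673). The relative miR-10a-5p, with 43.5% of G and C bases, was close to both, at 1.95 (SE 0.34, adjusted p = 0.0112). miR-10b-5p was not in this fit. miR-99b-5p turned from -0.83 to 1.44 (SE 0.60, adjusted p = 0.138) and miR-99b-3p from -0.99 to 1.21 (SE 0.48, adjusted p = 0.123). The median over the 390 miRNAs moved to 0.36 in this fit. The direction of miR-99b between EV and whole cells therefore depended on this choice, and neither direction passed the test with all 6 libraries. For miR-99b-5p the shift to 1.44 was larger than the gap between -0.83 and the median of -1.35 of miRNAs of like content. Why it was larger was not tested.

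The miRNAs whose levels ran most like those of each 5p member were ranked by the root mean square difference of centred log2(CPM + 4) values over the 6 libraries, among 425 miRNAs outside the family. For miR-100-5p they were let-7c-3p (0.33), miR-3065-5p (0.35) and miR-9-5p (0.36), the last an abundant miRNA of neural progenitors and glia with 22652, 9271 and 22542 CPM in EV 1, 2 and 3. On the same scale miR-99a-5p was at 0.331, about as near to miR-100-5p as let-7c-3p at 0.332. let-7c-3p had only 9.58 to 40.0 CPM, where the added 4 CPM weigh more. With 1 CPM added it was at 0.363, and miR-99a-5p stayed at 0.331. For miR-99a-5p the nearest were miR-30b-5p (0.43), miR-374b-5p (0.48) and miR-181a-3p (0.50). For miR-99b-5p they were miR-320d (0.39), miR-30c-2-3p (0.41) and miR-28-3p (0.43), while its own 3p strand was nearer, at 0.29. miR-99b-5p and miR-100-5p were 1.08 apart. These values describe 6 libraries and were not tested.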

How the data were processed

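Per the file headers, the authors made the deposited counts of reads per mature miRNA with featureCounts 1.5.0-p1 (strand setting 1, miRBase release 20) from a Bowtie 1 alignment, whereas the methods and the submitters' processing notes name Bowtie2, and the methods another release of miRBase. Adapters were removed with cutadapt. No collapsing of reads by molecular identifiers was stated, and the genome build is not named in the sources used here. The positions listed beside the members' counts differ from those of GRCh38.p14.

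Samples were grouped by the labelled fraction. Labels and methods differ in how long medium was conditioned. No library was a copy of another, since every pair of libraries had a chi-square per degree of freedom of at least 41.9. The fit used edgeR 4.0.16 (quasi-likelihood, TMM factors of 0.896 to 1.20, two-sided) in R 4.3.3 on all 6 libraries, with Benjamini-Hochberg adjustment over 430 miRNAs. DESeq2 1.42.0 was an alternative. Shares and log2 ratios, with 0.5 counts added to each side, were compared by exact permutation tests in Python 3.11.15.

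The members and lists were chosen with earlier results of these data known. Named were the 6 members, 11 cluster partners, 2 miR-10 relatives, any miRNA with the same seed and, for each 5p member, the 3 miRNAs of nearest pattern. Sequences and hairpin positions came from RefSeq (GRCh38.p14) and host genes from GENCODE 29. Alternatives covered scaling, filter, limits, thinning to the smallest total, pseudocount, denominator, each library left out and G and C content (lowess, added later).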

Additional observations from a re-analysis of the deposited data

How the results depend on the processing

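No paired analysis was made, because the labels give the groups no shared replicate numbers and the passage differed in every library. The 123 miRNAs called between EV and whole cells became 240 with no filter, 76 with at least 50 CPM, and 25 at an adjusted p below 0.01 with a log2 fold change of at least 2.5, and 26 to 128 with 1 library left out. The lowest counts came without whole cells 2 (26), whole cells 3 (37) and whole cells 1 (79). With the G and C trend removed, log2 fold changes were 1.92 for miR-100-5p, now called, and, with the sign reversed, 1.44 for miR-99b-5p, 0.17 for miR-99a-3p and 1.21 for miR-99b-3p. The cause was not tested. With 1 library left out, the log2 fold change was -0.035 to 1.55 for miR-99a-5p (lowest without EV 1) and -1.39 to -0.78 for miR-99b-3p, called only without whole cells 1. The difference in family share ran from -0.205 to 1.30 percentage points, negative only without EV 1, and was 1.35 without miR-21-5p and miR-16-5p and 1.12 without let-7 5p members in the denominator, against 0.705. The differences in log2 ratio changed sign for miR-100-5p to miR-100-3p (-0.34 to 4.12, and -0.51 after thinning), miR-99b-5p to miR-99b-3p (-0.19 to 0.26), miR-100-5p to miR-99a-5p (-0.22 to 0.29, and 0.017 after thinning) and miR-99b-5p to miR-125a-5p (-0.40 to 0.78). Direction was kept in the other 64 comparisons with an alternative for log2 fold changes, 87 for log2 ratios and 8 for the family share. In those 64 the side of the limit was kept as well. For ratios and the share it could not change, since an exact permutation p of 3 against 3 libraries cannot fall below 0.1. Where 1 library is left out, the exact permutation tests, with 3 against 2 libraries, cannot give a p below 0.1 either, whereas the edgeR fits can. The nearest miRNAs were the same at a pseudocount of 1, except that miR-3065-5p replaced miR-181a-3p for miR-99a-5p. Their order changed for miR-100-5p, where let-7c-3p fell from first to last of those listed. The depth of whole cells 1 and the 0 counts of miR-100-3p and miR-99a-3p limit what the 3p strands can show.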
